A study of Mus musculus with 3 samples.

Results

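The constant regions of the antibody chains and the joining chain were followed in RNA of the mandibular condyle, as 10 genes chosen by symbol out of the 26970 genes of the deposited table. They are Ighm, Ighd, Ighg3, Ighg1, Ighg2b, Ighg2c and Igha for the heavy chains, Igkc and Iglc2 for the light chains, and Jchain. All 10 were found, and all 10 passed the filter used for comparisons, an average of 1 FPKM or more. FPKM is the number of fragments per kilobase of gene, scaled to the size of the library.

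Condyles were taken from 4-month-old mice of 3 genotypes: WT, Dspp+/- and Dspp-/-. The mutants carry a global Dspp knockout on the C57BL/6 background, and the Dspp+/- mice came from crossing Dspp-/- mice with C57BL/6 wild-type mice. Cartilage and subchondral bone were kept joined, and the WT and Dspp+/- samples each hold pooled tissue of 3 animals, while the number behind the Dspp-/- sample is not given in the sources used here. There was 1 library per genotype and no replicate, so no test between genotypes was possible and every difference given is between single libraries. Both mutant libraries are compared with the same WT library, so their folds over WT are not independent of each other.

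An antibody is built of heavy chains paired with light chains. A B cell first makes the mu heavy chain of IgM and, once mature, also the delta chain of IgD from the same transcript by splicing. Class switching then joins the variable region to a gamma or alpha constant gene, which gives IgG or IgA. The light chain is kappa or lambda, and in mice mostly kappa. The joining chain links IgM and IgA into polymers in antibody-secreting cells. Bone marrow holds precursors of B cells and also long-lived plasma cells.

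The positions in the table are of a build that the sources used here do not name for these mouse data, and they differ from GRCm38 for most genes. There the heavy-chain genes lie on the minus strand of chromosome 12, in the order Ighm, Ighd, Ighg3, Ighg1, Ighg2b, Ighg2c and Igha along transcription. Ighm was placed at chr12:113382178-113386350. Igkc was at chr6:70703419-70703950 on the plus strand, Iglc2 at chr16:19017146-19019101 on the minus strand and Jchain at chr5:88667668-88675750.

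The 4 IgG genes resemble each other, so whether their reads could be told apart bears on every isotype value. Their coding sequences were 85.7% identical between Ighg2b and Ighg2c and 74.1% to 76.3% identical in the other pairs. The hinge exon, which joins the Fab arms to the Fc part and holds the cysteines that link the heavy chains, differs visibly between them. It is given here from GENCODE M21 on GRCm38, exon 2 of each gene on the minus strand, with in-frame cysteine codons in capitals.
Ighg3, chr12:113360529-113360576: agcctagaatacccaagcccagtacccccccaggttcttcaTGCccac
Ighg1, chr12:113329844-113329882: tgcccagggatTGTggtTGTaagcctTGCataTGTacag
Ighg2b, chr12:113307261-113307326: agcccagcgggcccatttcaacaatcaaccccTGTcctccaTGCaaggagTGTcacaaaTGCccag
Ighg2c, chr12:113288263-113288325: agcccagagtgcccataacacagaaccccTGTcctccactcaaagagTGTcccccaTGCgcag
The exon had 48 bases in Ighg3, 39 in Ighg1, 66 in Ighg2b and 63 in Ighg2c, with 1, 4, 4 and 3 such codons.

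Of the lambda genes, Iglc2 and Iglc3 are closer still, while Iglc1 stands further off. For these 3 genes, 90 bases near the start of the coding sequence are given, lined up for the most matches. They are from exon 1 on the minus strand of the same build, and capitals mark bases that differ from Iglc2.
Iglc2, chr16:19198761-19198850: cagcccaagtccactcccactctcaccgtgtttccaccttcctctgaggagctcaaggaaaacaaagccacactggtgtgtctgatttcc
Iglc3, chr16:19065590-19065679: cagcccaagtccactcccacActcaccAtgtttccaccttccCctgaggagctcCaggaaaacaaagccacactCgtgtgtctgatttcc
Iglc1, chr16:19061980-19062069: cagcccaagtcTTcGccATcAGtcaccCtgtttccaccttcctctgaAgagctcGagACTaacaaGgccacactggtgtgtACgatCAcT
Iglc3 differed from Iglc2 at 5 of these bases and Iglc1 at 19, and over the coding sequence Iglc2 was 96.2% identical to Iglc3 and 73.4% identical to Iglc1. Nevertheless 0% of the 100-base sequences of any of the 10 genes occurred in the transcripts of another gene of GENCODE M21. Shorter matches were not searched, and 6.21% of the exon bases of Iglc2 overlap the joining segment Iglj2, as 20.6% of those of Iglc3 overlap 2010309G21Rik.

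All 10 genes were higher in both mutant libraries than in WT. Together they held 538 FPKM for WT, 1361 for Dspp+/- and 1168 for Dspp-/-, which is 0.174%, 0.379% and 0.334% of the summed FPKM of each library. Fragment numbers were recovered from FPKM and gene length, with depths of 20241576, 23613621 and 22253158 fragments in WT, Dspp+/- and Dspp-/-. Intervals in brackets are 95% Clopper-Pearson intervals from these fragments or, for single FPKM values in the plots, exact Poisson intervals. They cover counting error only, not differences from mouse to mouse.

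A gene was called when FPKM + 1 differed at least 2-fold between libraries. In Dspp+/- 7 of the 10 genes were called higher than in WT, where 4.88% of all 13026 genes compared were, and 0 were called lower, where 2.86% were. In Dspp-/- 6 of the 10 were called higher, against 4.05% of all genes, and 0 lower, against 1.37%. The median log2 ratio of the 10 genes to WT was 1.94 for Dspp+/- and 1.24 for Dspp-/-, beside 0.058 and 0.0070 over all genes compared. Between the mutants, 3 of the 10 were called lower in Dspp-/- than in Dspp+/-, against 0.798% of all genes, and 0 higher, against 0.852%. In whole tissue, more cells of a type and more RNA per cell cannot be told apart.

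**Figure D1:**
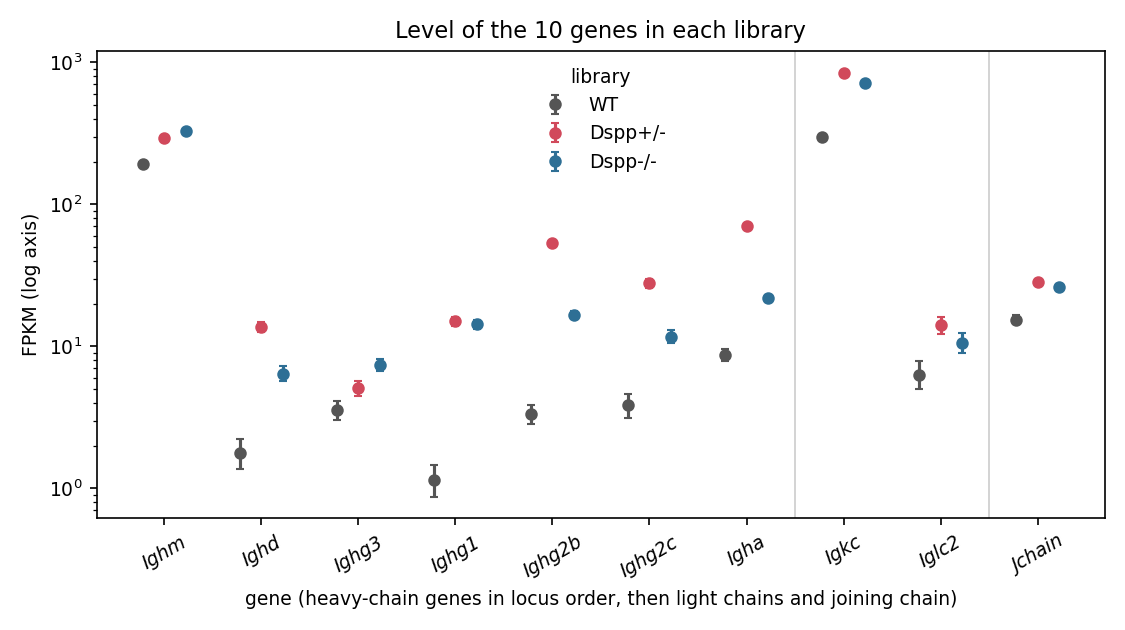
FPKM (log axis) of each of the 10 genes in the WT, Dspp+/- and Dspp-/- libraries, as points with exact 95% Poisson intervals from the fragments. Igkc and Ighm lie far above the rest in every library, and the WT point is the lowest of the 3 for every gene.

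Igkc, the kappa light chain constant region, was the highest of the 10 genes in every library. Its level was 301 FPKM for WT, 841 for Dspp+/- and 721 for Dspp-/-, on 3240, 10562 and 8536 fragments. By FPKM it ranked 83 among all genes for WT, 30 for Dspp+/- and 33 for Dspp-/-. The level was 2.79-fold that of WT in Dspp+/- [2.69 to 2.91] and 2.40-fold in Dspp-/- [2.30 to 2.5]. The Dspp-/- library stood between the other two, nearer to Dspp+/-.

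Ighm, the mu heavy chain of IgM, was second in every library, at 193 FPKM for WT, 292 for Dspp+/- and 332 for Dspp-/-. It was 1.51-fold higher in Dspp+/- [1.47 to 1.56] and 1.72-fold higher in Dspp-/- [1.67 to 1.77], with log2 ratios of FPKM + 1 of 0.60 and 0.78 that did not reach the call in either. Ighm and Ighg3 were the members that were higher in Dspp-/- than in Dspp+/-.

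Ighd, the delta heavy chain carried by mature naive B cells, was scarce in WT. Its level was 1.77 FPKM for WT, 13.6 for Dspp+/- and 6.43 for Dspp-/-, on 68, 612 and 272 fragments. That was 7.71-fold the WT level in Dspp+/- [6.0 to 10.1] and 3.64-fold in Dspp-/- [2.78 to 4.82]. The log2 ratio between Dspp-/- and Dspp+/- was -0.98, just short of the call.

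Of the class-switched genes, Igha, Ighg2b and Ighg2c were highest in Dspp+/-, beyond counting error, while Ighg1 and Ighg3 were not. Igha, the alpha heavy chain of IgA, the antibody of mucosal surfaces, measured 8.70 FPKM for WT, 70.8 for Dspp+/- and 21.8 for Dspp-/-. It was 8.14-fold higher than WT in Dspp+/- [7.40 to 8.97] and 2.5-fold in Dspp-/- [2.25 to 2.79]. Its rank by FPKM was 4543 for WT, 455 for Dspp+/- and 1689 for Dspp-/-. The Dspp-/- level was 0.307 times the Dspp+/- level [0.289 to 0.327].

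Ighg2b, a gamma heavy chain whose IgG binds activating Fc receptors, had the largest fold over WT of the 10 genes in Dspp+/-. It measured 3.32 FPKM for WT, 53.6 for Dspp+/- and 16.7 for Dspp-/-, on 180, 3390 and 996 fragments. The folds over WT were 16.1 [13.9 to 18.9] and 5.03 [4.29 to 5.93]. Ighg2c, which C57BL/6 mice carry in place of Ighg2a, measured 3.84, 27.8 and 11.7 FPKM in WT, Dspp+/- and Dspp-/-, and was 7.23-fold [5.89 to 8.96] and 3.05-fold [2.44 to 3.83] higher than WT. Like Igha, both were called lower in Dspp-/- than in Dspp+/-, with log2 ratios of -1.62 for Ighg2b and -1.18 for Ighg2c. With a pseudocount of 5 FPKM the ratio of Ighg2c was -0.97 and no longer called.

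Ighg1, the gamma heavy chain typical of responses with interleukin 4, showed another order. It was the lowest of the 10 genes in WT at 1.14 FPKM, on 60 fragments, and stood at 15.0 FPKM in Dspp+/- and 14.3 in Dspp-/-. The folds over WT were 13.1 [10.1 to 17.3] and 12.5 [9.63 to 16.6], the largest of the 10 genes in Dspp-/-. The ratio of the mutant levels was 0.956, with an interval that includes 1 [0.869 to 1.05].

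Ighg3, the gamma heavy chain known from responses to polysaccharides, differed least from WT in Dspp+/-. It measured 3.54 FPKM for WT, 5.06 for Dspp+/- and 7.39 for Dspp-/-, which is 1.43-fold [1.18 to 1.73] and 2.09-fold [1.75 to 2.5] the WT level. Its log2 ratios of FPKM + 1 were 0.42 and 0.89, so that it was called in neither. It was 1.46-fold higher in Dspp-/- than in Dspp+/- [1.26 to 1.70], opposite in direction to Ighg2b, Ighg2c and Igha.

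Iglc2, a lambda light chain, measured 6.30 FPKM for WT, 14.1 for Dspp+/- and 10.6 for Dspp-/-, on 78, 204 and 144 fragments. The folds over WT were 2.24 [1.72 to 2.95] and 1.68 [1.27 to 2.24], and only the first was called. That call was at the threshold, with a log2 ratio of 1.05, and was lost under median-ratio scaling at 0.98, upper-quartile scaling at 0.97 and a pseudocount of 5 FPKM at 0.76. Jchain measured 15.4, 28.4 and 26.0 FPKM in WT, Dspp+/- and Dspp-/-, a 1.84-fold [1.69 to 2.01] and 1.69-fold [1.55 to 1.84] higher level that was called in neither.

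**Figure D2:**
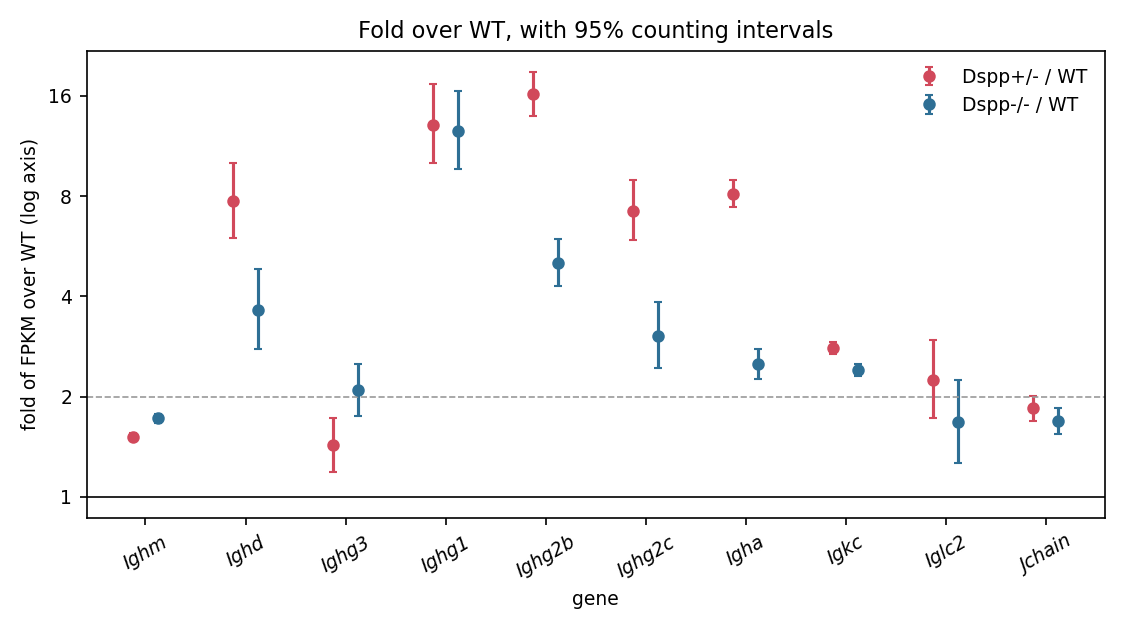
Fold of FPKM over the WT library (log axis) for the 10 genes in Dspp+/- and Dspp-/-, with 95% Clopper-Pearson counting intervals; the solid line marks 1 and the dashed line 2. Ighg2b, Igha, Ighg2c and Ighd lie higher in Dspp+/-, the 2 points of Ighg1 nearly coincide, and Ighm and Ighg3 are higher in Dspp-/-.

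Isotypes were next compared within each library, where no scaling between libraries enters. Of the summed FPKM of the 7 heavy-chain genes, Ighm held 89.6% for WT, 61.1% for Dspp+/- and 80.9% for Dspp-/-. The class-switched genes, which are the 4 IgG genes and Igha, held 9.54%, 36.0% and 17.5%. Counted as fragments rather than per length, the class-switched share was 11.8% for WT [11.1 to 12.5], 42.2% for Dspp+/- [41.6 to 42.8] and 21.4% for Dspp-/- [20.8 to 22.0]. Dspp+/- therefore had the most switched heavy-chain RNA and WT the least, by margins beyond counting error.

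The IgG genes together held 5.50% of heavy-chain FPKM for WT, 21.2% for Dspp+/- and 12.2% for Dspp-/-. Igha held 4.04%, 14.8% and 5.31%. Ighd held 0.821%, 2.85% and 1.57%. In each of these shares Dspp-/- lay between WT and Dspp+/-, close to WT for Igha.

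**Figure D3:**
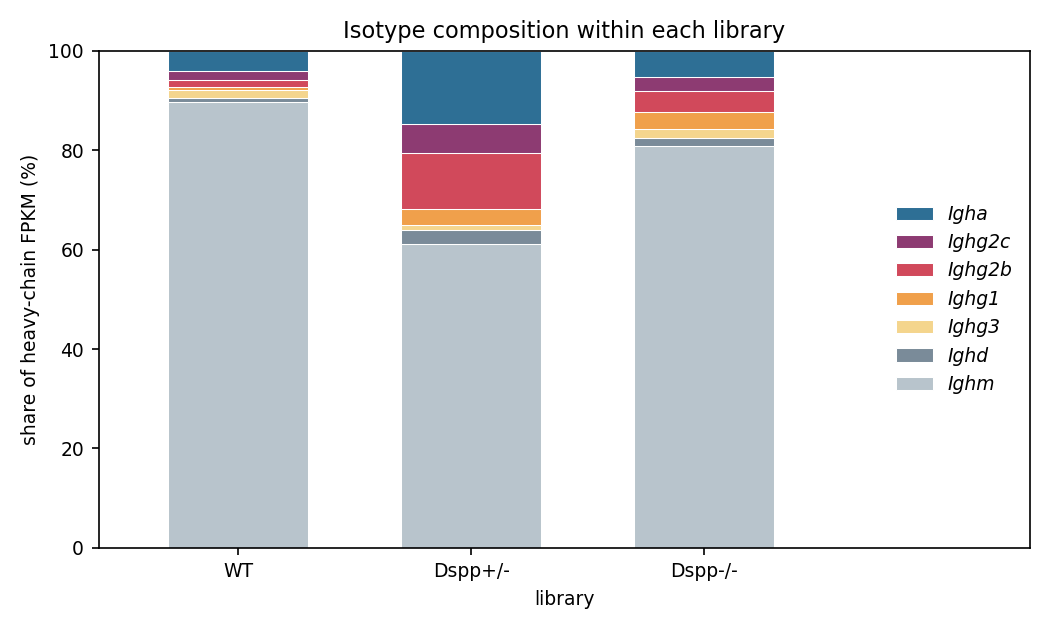
Share of the summed heavy-chain FPKM (percent) held by each of the 7 heavy-chain genes in the WT, Dspp+/- and Dspp-/- libraries, stacked to 100% in the order of the locus. Ighm takes 89.6% of the bar in WT and 61.1% in Dspp+/-, and Igha and Ighg2b take the largest parts of what remains there.

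The IgG genes were divided differently in the 3 libraries. Ighg2b held 28.0% of IgG FPKM for WT, 52.9% for Dspp+/- and 33.4% for Dspp-/-. Ighg3 held 29.9%, 4.99% and 14.7%. Ighg1 held 9.66%, 14.8% and 28.6%, and Ighg2c 32.4%, 27.4% and 23.3%. Counted as fragments, WT had 34.4% each for Ighg2b and Ighg3 and 19.7% for Ighg2c. In WT the FPKM levels of Ighg2c, Ighg3 and Ighg2b did not differ from each other beyond counting error, whereas in Dspp+/- Ighg2b was at 1.93 times the level of Ighg2c. Both statements rest on the annotated exon lengths, 1326 bases for Ighg2c, 2678 for Ighg2b and 2512 for Ighg3. The counting intervals do not cover an error in these lengths. In fragments, Ighg2b held 61.9% and Ighg2c 15.9% of IgG in Dspp+/-.

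Set against Ighm, most other isotypes were higher in the mutants. The ratio of Ighg2b to Ighm was 10.7 times that of WT in Dspp+/- [9.15 to 12.5] and 2.93 times in Dspp-/- [2.49 to 3.46]. The ratio of Ighg1 to Ighm was 8.66 times [6.65 to 11.5] and 7.29 times [5.59 to 9.65] that of WT, and that of Igha to Ighm 5.38 times [4.87 to 5.95] and 1.46 times [1.3 to 1.63]. Ighg3 kept closest to Ighm, at 0.944 times the WT ratio in Dspp+/- [0.780 to 1.14] and 1.21 times in Dspp-/- [1.01 to 1.46].

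Ighd and Ighm come from 1 transcription unit, so their ratio compares products of the same locus. The ratio was 0.00916 for WT, 0.0467 for Dspp+/- and 0.0194 for Dspp-/-. It was 5.10 times that of WT in Dspp+/- [3.96 to 6.66] and 2.12 times in Dspp-/- [1.62 to 2.81]. All 3 libraries were apart by more than counting error.

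Jchain stood in nearly the same ratio to the sum of the chains that it joins in all 3 libraries, but not to each chain alone. Its ratio to Ighm plus Igha was 0.0764 for WT [0.0709 to 0.0822], 0.0783 for Dspp+/- [0.0744 to 0.0823] and 0.0737 for Dspp-/- [0.0698 to 0.0777]. The 3 intervals overlap, so no difference in this ratio was detectable at this depth. In fragments it was 0.965 times that of WT in Dspp+/- [0.883 to 1.06] and 0.957 times in Dspp-/- [0.873 to 1.05]. Against Igha alone the ratio was 1.77 for WT, 0.401 for Dspp+/- and 1.20 for Dspp-/-. That is 0.227 times WT in Dspp+/- [0.199 to 0.258] and 0.675 times in Dspp-/- [0.587 to 0.776]. Against Ighm alone it was 0.0798, 0.0973 and 0.0785, which is 1.22 times WT [1.11 to 1.33] and 0.983 times [0.897 to 1.08]. In Dspp+/- the separate ratios thus moved in opposite directions, beyond counting error.

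Light and heavy chains were measured in unlike proportion. The summed light-chain FPKM was 1.43 times the heavy-chain FPKM in WT [1.37 to 1.49], 1.79 times in Dspp+/- [1.75 to 1.83] and 1.78 times in Dspp-/- [1.74 to 1.83]. Both mutants exceeded WT beyond counting error. Between the mutants the FPKM intervals overlapped, while in fragments the ratio was 1.05 times higher in Dspp-/- than in Dspp+/- [1.02 to 1.09]. The ratio of Igkc to Ighm was 1.56, 2.88 and 2.17.

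Of the summed FPKM of Igkc and Iglc2, Iglc2 held 2.05% for WT, 1.65% for Dspp+/- and 1.45% for Dspp-/-. In fragments this was 2.35% [1.86 to 2.93], 1.89% [1.65 to 2.17] and 1.66% [1.40 to 1.95]. Compared directly, the ratio of Iglc2 to Igkc was 0.802 times that of WT in Dspp+/- [0.613 to 1.06] and 0.701 times in Dspp-/- [0.527 to 0.938], so that only the second was apart from WT beyond counting error. The table also holds Iglc1, at 6.20, 25.1 and 22.1 FPKM in WT, Dspp+/- and Dspp-/-, and Iglc3, at 2.30, 6.18 and 7.75. Iglc1 was level with Iglc2 in WT, at a ratio of 0.985, and exceeded it in the mutants, at 1.78 and 2.09. Iglc4 had 0 fragments in WT, which allows a level of up to 0.580 FPKM, 2 in Dspp+/- and 4 in Dspp-/-. With all 4 genes the lambda share was 4.69%, 5.15% and 5.38%, the opposite order to that of Iglc2 alone, with overlapping intervals in fragments.

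**Figure D4:**
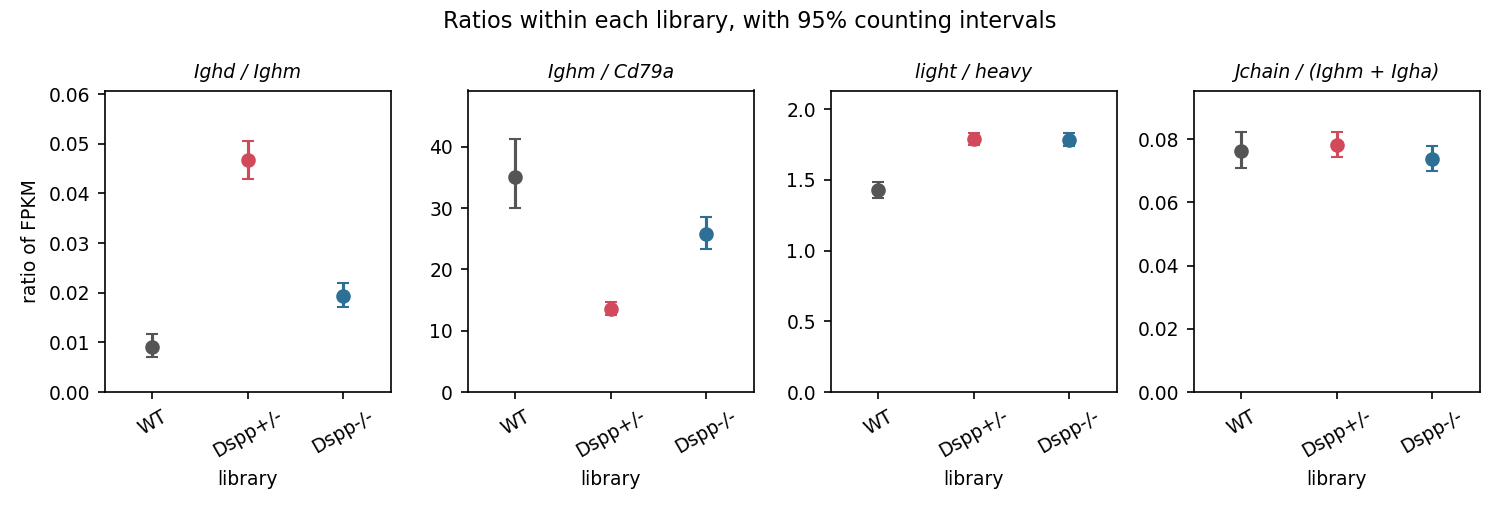
Ratios of FPKM within each library, with 95% counting intervals and axes from 0, for Ighd to Ighm, Ighm to Cd79a, light to heavy chains, and Jchain to Ighm plus Igha. Ighd to Ighm is highest and Ighm to Cd79a lowest in Dspp+/-, light to heavy is lower in WT than in both mutants, and the intervals of the Jchain ratio overlap.

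In order of level, Igkc and Ighm led everywhere, and the genes behind them changed places. In WT the order went on with Jchain, Igha and Iglc2, then Ighg2c, Ighg3 and Ighg2b without separation beyond counting error, and ended with Ighd and Ighg1. In Dspp+/- it went on with Igha and Ighg2b, then Jchain and Ighg2c, which could not be separated, then Ighg1, Iglc2 and Ighd, neighbours that could not be separated either, and last Ighg3. In Dspp-/- it went on with Jchain, Igha, Ighg2b and Ighg1, then Ighg2c and Iglc2 without separation, and ended with Ighg3 and Ighd, also without separation.

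The variable segments of the same loci were also higher in the mutants. The 103 Ighv genes of the table held 949 fragments for WT, 2312 for Dspp+/- and 1757 for Dspp-/-, and the 100 Igkv genes 1351, 3736 and 2456. The 3 Iglv genes held 108, 412 and 423.

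Genes of the B lineage outside the antibody loci were taken from lists written by hand. Of 17 mature B cell genes compared, 13 were called higher in Dspp+/- and 10 in Dspp-/-, and 0 lower in either, with medians of 1.32 and 1.09 on the log2 scale. Cd79a, a signalling chain of the B cell receptor, measured 5.49 FPKM for WT, 21.6 for Dspp+/- and 12.9 for Dspp-/-. Its partner Cd79b measured 5.90, 21.8 and 15.4 FPKM. Ly6d, a surface protein of early and mature B cells, measured 5.71, 20.1 and 14.3 FPKM, and Cd74, the invariant chain of MHC class II, 79.3, 131 and 97.8 FPKM.

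Per unit of Cd79a, the constant genes did not move alike. The ratio of Ighm to Cd79a was 35.1 for WT, 13.5 for Dspp+/- and 25.8 for Dspp-/-, so that Ighm was lower per Cd79a in both mutants, at 0.385 [0.322 to 0.459] and 0.734 [0.607 to 0.884] times WT. The ratio of Ighd to Cd79a was higher in both, at 1.96 [1.44 to 2.70] and 1.55 [1.11 to 2.18] times WT. For Igkc it was 0.712 times WT in Dspp+/- [0.594 to 0.849] and 1.02 times in Dspp-/- [0.844 to 1.24].

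The plasma cell list, mostly genes of the secretory pathway that other secreting cells also use, held genes on both sides of WT. Of 16 genes compared, 8 were higher and 8 lower in Dspp+/-, and 7 were higher and 9 lower in Dspp-/-. Of these, 2 were called higher in each mutant, Pou2af1 and Irf4, and 2 lower in Dspp+/-, Sdc1 and Fkbp11, while 0 were called lower in Dspp-/-. These 4 are named because they carry the counts. The medians were -0.028 and -0.044. Slamf7, a surface receptor of plasma cells and other leukocytes, had 88 fragments for WT, 197 for Dspp+/- and 192 for Dspp-/-, which is 1.92-fold [1.49 to 2.5] and 1.98-fold [1.53 to 2.58] and was not called. Derl3, with 17, 42 and 13 fragments, and Mzb1, with 2, 13 and 9, were under the filter. These 3, and the 3 that follow, were chosen after their values were seen. Prdm1, which was lower, measured 3.47 FPKM for WT, 2.18 for Dspp+/- and 2.51 for Dspp-/-. That is 0.628-fold [0.537 to 0.733] and 0.722-fold [0.620 to 0.840], and it was not called. Tnfrsf17, with 3, 5 and 7 fragments, and Eaf2, with 14, 20 and 24, were under the filter, with intervals that include 1. Xbp1, the factor that expands the secretory pathway, measured 39.7 FPKM for WT, 42.2 for Dspp+/- and 41.0 for Dspp-/-, and the chaperone Hsp90b1 55.6, 59.9 and 53.5 FPKM. The disulfide isomerases Txndc5 and Pdia4 measured 38.9, 23.7 and 25.7 FPKM and 30.9, 28.4 and 24.7 FPKM.

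Of 7 genes of the pre-B cell receptor and recombination, 2 were called higher in each mutant and 0 lower, with medians of 0.74 and 0.71. Called or not, 4 were higher and 3 lower in Dspp+/-, and 6 were higher and 1 lower in Dspp-/-. Over all 11 genes of the list, without the filter, the medians were 0.14 and 0.67. Vpreb3, a protein of the pre-B cell receptor complex, measured 3.57 FPKM for WT, 8.97 for Dspp+/- and 10.2 for Dspp-/-, and Il7r, the receptor for interleukin 7, 0.773, 2.72 and 3.85 FPKM. Both were the called genes, and Il7r passed the filter only through the mutants. Vpreb1 and Igll1, which form the surrogate light chain, are named after their values were seen. Vpreb1 had 34 fragments for WT, 16 for Dspp+/- and 39 for Dspp-/-, which is 0.403-fold [0.208 to 0.751] and 1.04-fold [0.642 to 1.70]. Igll1, under the filter, had 22, 9 and 102 fragments, which is 0.351-fold [0.142 to 0.792] and 4.22-fold [2.64 to 7.02]. Rag1, which cuts antigen receptor genes for recombination, measured 1.82, 3.74 and 3.49 FPKM, and the transcription factor Sox4 22.1, 14.1 and 15.7 FPKM.

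Of 8 genes of class switching and germinal centres, 0 were called in either mutant, with medians of 0.42 and 0.22. Bcl6, the factor of germinal centre B cells, measured 9.03 FPKM for WT, 10.04 for Dspp+/- and 9.60 for Dspp-/-, and the death receptor Fas 5.49, 9.59 and 7.45 FPKM. Msh6, of mismatch repair, measured 3.64, 5.74 and 5.13 FPKM, and Rif1, of DNA end protection, 3.65, 5.13 and 5.60 FPKM.

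Of 8 genes for receptors and transport of antibodies, 3 were called higher in Dspp+/- and 2 in Dspp-/-, and 0 lower. Fcmr, called in both mutants, and Fcer2a, called in neither, were also counted among the mature B cell genes. Fcgrt, the neonatal Fc receptor that protects IgG from breakdown, measured 68.8 FPKM for WT, 44.6 for Dspp+/- and 47.7 for Dspp-/-. Fcer1g, the signalling chain shared by Fc receptors, measured 18.9, 32.1 and 34.3 FPKM, Fcgr3 5.44, 15.8 and 16.9, and the inhibitory Fcgr2b 2.82, 5.05 and 3.72. Pigr, which carries polymeric IgA across epithelia, had 2 fragments in WT and 0 in both mutants, under the floor of 3 fragments.

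**Figure D5:**
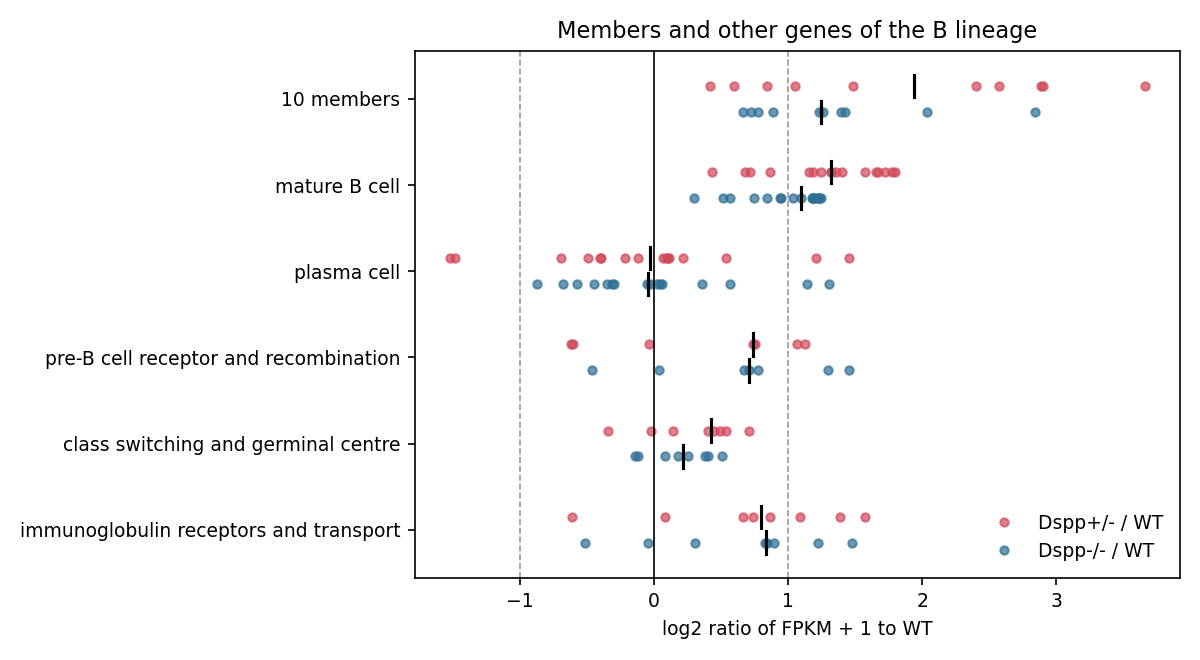
Log2 ratio of FPKM + 1 to WT for the 10 genes and for the genes of 5 lists that passed the filter, in Dspp+/- and Dspp-/-; black ticks are medians and dashed lines mark 2-fold. The 10 genes and the mature B cell genes lie to the right of 0 in both mutants, and the plasma cell genes lie on both sides of 0.

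Some genes outside the antibody loci had nearly the same ratios to WT. Nearest to Igkc, by the distance over its 2 log2 ratios in 3 libraries, were Adam8, Ptpn6 and Themis2, at distances of 0.023, 0.033 and 0.036. Nearest to Ighm were Gbp7, Gpm6a and Ogfrl1, at 0.021, 0.035 and 0.036. Near to Jchain lay Prkcd and Gm16161, at 0.014 and 0.019. Within a distance of 0.1 there were 19, 47 and 57 genes, counted with the member itself and any antibody genes, so this likeness is common.

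Other cell types also differed between the libraries, with neutrophil and erythroid genes mostly higher in the mutants and osteoblast and chondrocyte genes mostly lower. Their part in the results on the antibody genes was not tested. Neutrophil genes were called higher in both mutants in 12 of 12 cases, with a summed level of 647 FPKM for WT, 2913 for Dspp+/- and 3866 for Dspp-/-. Between the mutants these genes did not move alike. In Dspp-/- 8 were higher than in Dspp+/- and 4 lower, with 0 called higher and 4 called lower. Erythroid genes were called higher in both mutants in 11 of 12 cases, with 962, 3874 and 3759 FPKM. Osteoblast genes were called lower in 11 of 12 cases in Dspp+/- and 3 of 12 in Dspp-/-, with 20809, 5712 and 11325 FPKM, and chondrocyte genes in 8 and 6 of 10, with 1746, 489 and 792 FPKM. T cell genes summed to 7.01, 11.3 and 9.34 FPKM. Only 4 of the 12 passed the filter, with 3 higher and 1 lower in Dspp+/-. In Dspp-/- 2 of them were higher and 2 lower, and 0 were called in either mutant. Skeletal muscle genes summed to 14094, 19365 and 15055 FPKM. Condylar bone and cartilage markers were thus present in every library, beside blood, marrow and muscle genes.

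Xist, the RNA of the inactive X chromosome, had 2 fragments for WT, 12084 for Dspp+/- and 10563 for Dspp-/-. The sex of the pooled animals, as far as Xist shows it, and the Dspp genotype cannot be told apart in the comparisons with WT. Mitochondrial genes made up 25.0% of all FPKM for WT, 36.9% for Dspp+/- and 37.3% for Dspp-/-. The shares and ratios within a library do not depend on that.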

How the data were processed

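RNA of mandibular condyles from WT, Dspp+/- and Dspp-/- mice was poly(A)-selected and sequenced in pairs, with 1 library per genotype. The protocol speaks of triplicates and the methods of pooled tissue, and each genotype has 1 value per gene. The authors deposited 1 table whose unit is not named, and its values were read as FPKM. The submitters' processing notes name FastQC 0.11.5, HISAT2 2.1.0, StringTie 1.3.3b and DESeq 1.28.0 and the human build hg38. The kit is not stated to mark strand.

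Multiplied by the merged exon length of GENCODE M21, FPKM came out as whole fragments (tolerance 0.02 plus rounding) for 98.4% to 98.5% of genes under 100 fragments, and for all 10 genes in every library. Of 26970 genes, 26652 had a length, and 589 had the same start and end in GRCm38. Recovery and calls were tested on simulated data. FPKM does not adjust for composition. Genes averaging 1 FPKM or more were compared as log2(FPKM + 1) ratios, which understate the change of low genes, and called at 2-fold. Ratios between libraries carry exact conditional 95% intervals from fragments. PCR copies cannot be told from separate molecules here, so intervals cover counting error only. The Kruskal-Wallis test of the study cannot be run on single libraries, and no p-value is given.

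Named were the 10 genes, up to 4 genes of each B-lineage, switching and receptor list with the highest mean FPKM, Pigr, the 3 nearest genes of Igkc, Ighm and Jchain, and other constant genes of the table. The members and lists were chosen with earlier results of these data known. Alternatives were other pseudocounts, filters, scalings and thresholds, fragments in place of FPKM, and other gene sets for shares. Genes that the rule names but the text leaves out are not reported here. Dspp was not analysed here, and no check of the genotype labels rests on it. Scripts ran in Python 3.11.15 with pandas 2.3.3, numpy 2.4.6, Biopython 1.88, scipy 1.17.1 and matplotlib 3.10.9.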

Additional observations from a re-analysis of the deposited data

How the results depend on the processing

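No paired analysis was possible because each genotype has 1 library, and leaving out a library would remove a genotype. Over 8 alternatives of pseudocount and scaling, the members' log2 ratios to WT were above 0 in 80 of 80 values in each mutant, and between the mutants 16 were above 0 and 64 below. A pseudocount cannot change the sign of a ratio. The scaling factors relative to WT, from 0.940 to 1.20, were too near 1 to turn the smallest fold over WT of a member, 1.43. The signs against WT were therefore settled in advance, and their count is no test. The median of the members in Dspp+/- was 2.15 with a pseudocount of 0.1, 1.46 with a pseudocount of 5 and 2.18 when scaled without mitochondrial genes. In Dspp-/- it was 0.84 with a pseudocount of 5 and 1.5 without mitochondrial genes. That scaling, by summed FPKM, moved the median of all genes to 0.27 and 0.22. By recovered fragments, a version added after seeing the data, the Dspp-/- median of the members was 1.35, and that of all genes was 0.15 in Dspp+/- and 0.097 in Dspp-/-. In Dspp-/- 3 members were called higher with a pseudocount of 5, against 1.04% of all genes. At 1.5-fold 10 were called higher and at 4-fold 2. Between the mutants 2 were called lower with a pseudocount of 5, against 0.276% of all genes, and 0 at 4-fold. The shares of all genes at 1.5-fold and 4-fold were not computed, so the counts at these thresholds cannot be set against them.

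Counted as fragments, in the order WT, Dspp+/- and Dspp-/-, the class-switched share was 11.8%, 42.2% and 21.4%, the IgA share 5.58%, 18.9% and 7.16%, and the IgM share 87.4%, 55.2% and 77.1%. The light to heavy ratio was then 0.394, 0.457 and 0.481, the Jchain ratio 0.10, 0.0967 and 0.0959, and the lambda share in Dspp+/- 1.89%. Without the IgG genes the switched share was 4.28%, 18.8% and 6.05%. The lambda share was 4.69%, 5.15% and 5.38% over all Iglc genes and 7.06%, 9.67% and 14.2% over variable segments, so its direction depends on the genes counted. Over variable segments the light to heavy ratio was 1.51 in WT, 1.77 in Dspp+/- and 1.60 in Dspp-/-.

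With a pseudocount of 0.1 the list medians in Dspp+/- and Dspp-/- were 1.83 and 1.33 for mature B cell genes, 1.00 and 1.07 for pre-B genes, and 1.17 and 1.09 for receptors and transport. With no filter the pre-B median in Dspp+/- was 0.14, the receptor median in Dspp-/- 0.36, and the plasma cell median in Dspp+/- 0.074, with the sign turned. Depth limits the genes with few fragments, such as Ighg1 and Ighd in WT, and 1 library per genotype limits every comparison.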
